A study of Mus musculus with 12 samples.

Results

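The genes described here encode subunits and a regulator of voltage-gated calcium channels in mouse ventricle. They are 10 genes taken by symbol from a bulk RNA-seq table of 54949 features, of which 15114 passed the filter on low counts and were tested. All 10 passed it: Cacna1c, Cacna1d, Cacna1g and Cacna1h, which encode pores, Cacnb2, Cacna2d1, Cacna2d2, Cacna2d3 and Cacng6, which encode auxiliary subunits, and Rrad, which encodes a small GTP-binding protein that inhibits the channel.

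The study set mice with an induced heart failure of preserved ejection fraction (HFpEF) against controls. Wild-type male C57BL/6N mice, 8 weeks old at the start, received for 5 weeks either a high-fat diet and 0.5 g/L of the nitric oxide synthase blocker L-NAME in their water, or normal diet and water. Poly-A RNA came from ventricles without atria, in 12 libraries, 6 per group, while the design text gives 5 per group. The labels do not say that each library is a separate mouse, so p-values measure only the spread between these samples. The libraries carry 2 sets of names that oppose each other. In the table and the description label they are con-1 to con-6 and HF-1 to HF-6, but the titles and treatment labels give the HFpEF diet to all 6 con-named libraries and the normal diet to all 6 HF-named libraries. Con-named and HF-named are used below as names of the groups, and which of them was treated cannot be told apart here. Differences are given as HF-named minus con-named.

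Voltage-gated calcium channels open when the membrane depolarises. In ventricular myocytes the L-type channel, built around the Cacna1c pore, lets in the calcium that opens the ryanodine receptor Ryr2 of the sarcoplasmic reticulum and so triggers contraction. The pore is held by a β subunit on its cytoplasmic side and an α2δ subunit on its outer side, which affect how many channels reach the membrane and how they gate. Cacna1d is an L-type pore known for its role in the sinoatrial node and atria, and Cacna1g and Cacna1h are T-type pores, which open at more negative voltages and bind no β subunit at the L-type docking site.

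The sequence of the pore loop separates the L-type from the T-type members, so the loop of the third of the 4 channel domains is shown for each pore. The 39 bases are coding sequence from GENCODE M21 transcripts (GRCm38), and the capitals mark the codon of the selectivity filter.
Cacna1c: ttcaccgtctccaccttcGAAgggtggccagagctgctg
Cacna1d: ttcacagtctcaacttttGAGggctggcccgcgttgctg
Cacna1g: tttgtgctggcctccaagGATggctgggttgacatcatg
Cacna1h: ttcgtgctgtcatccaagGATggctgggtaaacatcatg
Cacna1c and Cacna1d have a glutamate codon here, and Cacna1g and Cacna1h an aspartate codon. Over the 4 domains, Cacna1c and Cacna1d each have 4 glutamate codons at this place, while Cacna1g and Cacna1h each have 2 glutamate and 2 aspartate codons. In the stretch printed, Cacna1c shared 30 of 39 bases with Cacna1d and 19 of 39 with Cacna1g.

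The site where the β subunit docks is shown because it links Cacnb2 to the L-type pores among the members. Capitals mark the codons of the residues that define the docking motif.
Cacna1c: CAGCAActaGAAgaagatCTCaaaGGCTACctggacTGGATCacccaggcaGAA
Cacna1d: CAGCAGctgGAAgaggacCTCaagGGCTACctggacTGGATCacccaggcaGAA
The pair differed at 5 of 54 bases and encoded the same 18 residues. The motif was found in 0 places in the Cacna1g and Cacna1h transcripts searched.

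The α2δ members share a metal ion-dependent adhesion site, shown because 2 of the 3 genes below differed between the groups in opposite directions. Capitals mark the codons of the metal-binding motif.
Cacna2d1: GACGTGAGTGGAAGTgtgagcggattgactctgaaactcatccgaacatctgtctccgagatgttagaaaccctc
Cacna2d2: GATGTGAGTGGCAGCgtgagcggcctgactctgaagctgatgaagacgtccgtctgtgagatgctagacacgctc
Cacna2d3: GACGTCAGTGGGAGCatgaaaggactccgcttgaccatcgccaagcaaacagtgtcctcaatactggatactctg
Over these 75 bases Cacna2d1 was identical to Cacna2d2 at 57 and to Cacna2d3 at 41.

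Library totals ran from 14443186 to 22048689 counts, so that 3 counts, the limit that a count of 0 allows, correspond to 0.142 to 0.217 CPM, counts scaled to a common library size. Mitochondrial transcripts took 21.0% to 24.0% of counts in con-named and 23.9% to 27.2% in HF-named libraries. The 10 cardiomyocyte markers summed to 67450 to 76400 CPM in con-named and 68966 to 75087 CPM in HF-named libraries. Myh6 held the largest part, at a mean of 30088 CPM in con-named and 32826 CPM in HF-named libraries. By the test given below, 5 of the 10 were lower in HF-named libraries and 1 was higher, so the like sums do not hold for each marker. Of the 8 atrial markers, Sln, Myl7, Bmp10 and Dhrs9 reached at most 16, 27, 1 and 4 counts in any library. Myl4, Dkk3, Stard10 and Nppa reached up to 63, 89, 412 and 2831 counts. Sln and Myl7 reached 1.06 and 1.79 CPM in HF-named libraries, against at most 0.0484 and 0.241 CPM in con-named ones.

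Of the 10 members, 4 differed between the groups: Cacna1c and Cacna2d1 were higher in HF-named libraries, and Cacna1d and Cacna2d2 were lower (edgeR quasi-likelihood test, Benjamini-Hochberg adjusted p under 0.05 over all genes tested). Across the tested genes 13.3% were called, 8.28% higher and 5.05% lower. The higher members are the pore and α2δ subunit of the main ventricular L-type channel and were abundant, while the lower members were scarce. The median log2 fold change of the 10 members was 0.02, beside -0.01 for all genes tested.

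**Figure D1:**
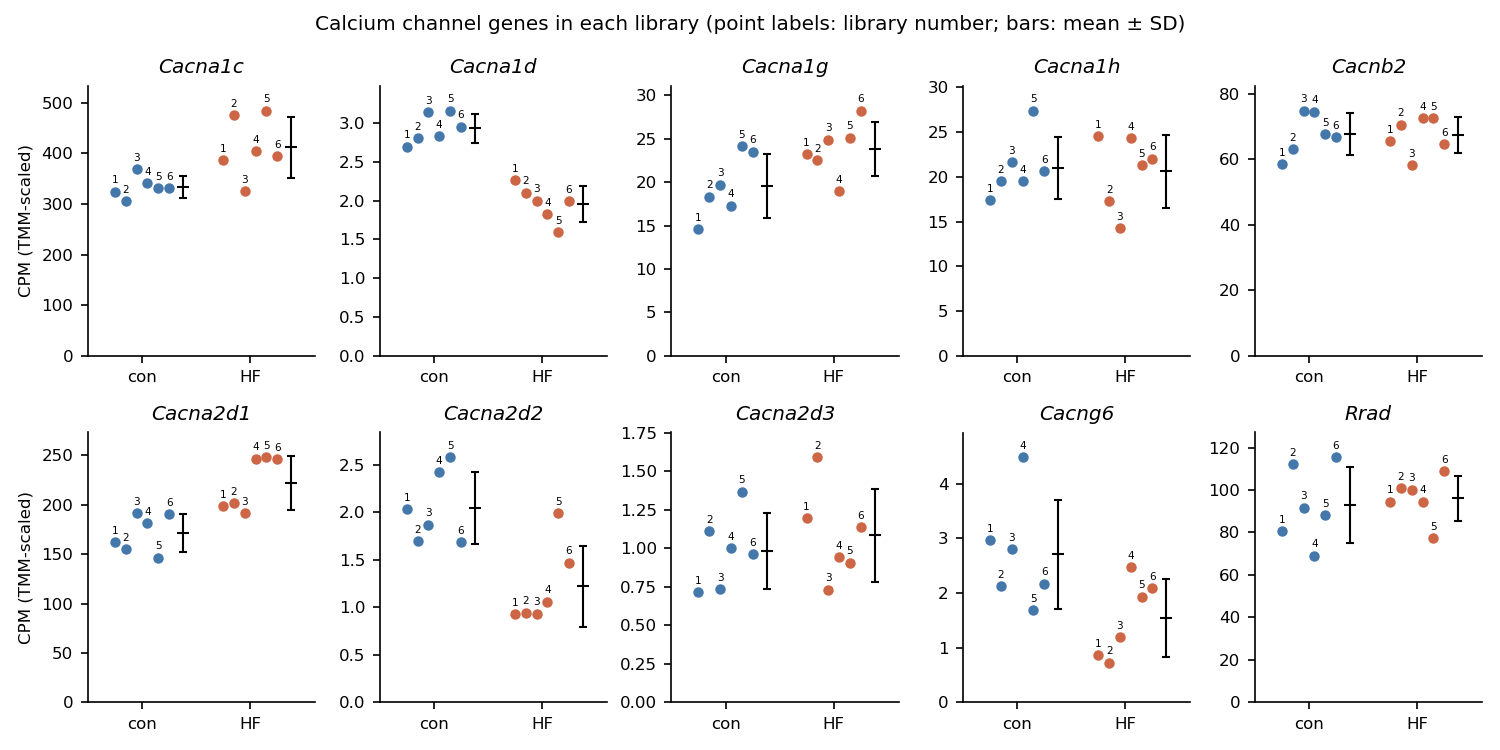
CPM of each calcium channel gene in each library (TMM-scaled, axes from 0), with points numbered by library and bars giving the mean ± SD of 6 libraries. The groups do not overlap for Cacna1d, lower in HF-named libraries, and Cacna2d1, higher in HF-named libraries.

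Among the pores, Cacna1c (chr6:118587240-119196418, minus strand) measured 305 CPM at the lowest, 331 at the median and 369 at the highest in con-named libraries, and 325, 399 and 484 in HF-named libraries. HF-named libraries 2 and 5 were the highest and HF-named 3 lay inside the con-named range, so that 5 of 6 HF-named libraries exceeded every con-named library. The mean was 334 ± 21.1 CPM in con-named and 412 ± 59.6 CPM in HF-named libraries (SD, n = 6 each). The log2 difference was 0.30 (SE 0.08, 95% interval 0.13 to 0.48, edgeR adjusted p = 0.0234). Without HF-named 2 the adjusted p was 0.0581, and it was also 0.0581 without HF-named 5. Scaling by library totals gave 0.18 (adjusted p = 0.0645), and correction for GC content and exon length, by an offset with splines of 5 degrees of freedom, gave 0.20 (adjusted p = 0.0977).

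Cacna1d (chr14:30039939-30491455, minus strand) measured 2.69, 2.89 and 3.16 CPM (lowest, median, highest) in con-named and 1.59, 1.99 and 2.26 CPM in HF-named libraries. Every HF-named library lay below every con-named library, which held for 1.95% of all genes tested. The mean was 2.93 ± 0.188 CPM against 1.96 ± 0.231 CPM (SD, n = 6 each). The log2 fold change was -0.58 (SE 0.12, 95% interval -0.84 to -0.32, edgeR adjusted p = 0.00693). These values rest on 28 to 60 counts per library. The Cacna1d exons overlap those of Chdh on the opposite strand over 4.67% of their bases, and Chdh held 1 to 9 counts per library; whether counting used strand is not given in the sources used here.

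Cacna1g (chr11:94408391-94474198, minus strand) measured 14.6, 19.0 and 24.2 CPM in con-named and 19.0, 24.0 and 28.2 CPM in HF-named libraries, and the groups overlapped. Its log2 fold change of 0.28 (95% interval 0.04 to 0.53) had an adjusted p of 0.111 in edgeR. The other T-type pore, Cacna1h (chr17:25374285-25433783, minus strand), ranged from 17.4 to 27.4 CPM in con-named and from 14.3 to 24.6 CPM in HF-named libraries. Its log2 fold change was -0.02 (95% interval -0.29 to 0.24, edgeR adjusted p = 0.928).

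The share of each pore in the summed FPKM (read counts scaled by exon length and library total) of the 6 tested pore genes places these differences against each other. Cacna1c held 70.9% ± 1.97 in con-named and 73.8% ± 2.56 in HF-named libraries (SD, n = 6 each). Cacna1d held 1.01% to 1.09% in con-named and 0.423% to 0.753% in HF-named libraries, with no overlap. Cacna1g held 8.69% ± 1.43 and 9.08% ± 1.80 in con-named and HF-named libraries. Cacna1h held 8.52% to 12.2% and 6.11% to 9.89%.

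The β subunit Cacnb2 (chr2:14603088-14987908, plus strand), the main cardiac β, ranged from 58.6 to 74.9 CPM in con-named and from 58.4 to 72.5 CPM in HF-named libraries, ranges that nearly coincide. The mean was 67.6 ± 6.41 CPM and 67.4 ± 5.57 CPM (SD, n = 6 each). The log2 fold change was -0.0039 (95% interval -0.15 to 0.14, edgeR adjusted p = 0.978). Cacnb2 held 63.1% ± 4.49 of the summed FPKM of the 4 β genes in con-named and 64.9% ± 2.95 in HF-named libraries.

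Among the α2δ subunits, Cacna2d1 (chr5:15934691-16374511, plus strand), the main cardiac α2δ and the target of gabapentin in nerve, measured 147, 172 and 191 CPM (lowest, median, highest) in con-named libraries. In HF-named libraries it measured 192, 224 and 248 CPM. Every HF-named library lay above every con-named library, as for 3.41% of all genes tested, although the highest con-named value of 191.4 and the lowest HF-named value of 191.8 CPM nearly touch. HF-named 4, 5 and 6 lay at 246 to 248 CPM and HF-named 1, 2 and 3 at 192 to 202 CPM. This split was not particular to Cacna2d1. Mitochondrial transcripts took 25.5% to 27.2% of counts in HF-named 4, 5 and 6 and 23.9% to 24.6% in HF-named 1, 2 and 3. The second axis of a principal component analysis of all tested genes (12.9% of variance) put them at 2.26 to 9.89 and -25.3 to -6.66. The mean was 171 ± 19.1 CPM in con-named and 222 ± 27.4 CPM in HF-named libraries (SD, n = 6 each). The log2 difference was 0.38 (SE 0.08, 95% interval 0.20 to 0.56, edgeR adjusted p = 0.00938).

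Cacna2d2 (chr9:107399612-107529343, plus strand), an α2δ best known from cerebellum, measured 1.69, 1.95 and 2.58 CPM in con-named and 0.930, 1.001 and 1.99 CPM in HF-named libraries. HF-named 5 lay inside the con-named range, and 5 lay below it. The mean was 2.05 ± 0.376 CPM and 1.22 ± 0.429 CPM (SD, n = 6 each), and the log2 difference was -0.72 (SE 0.21, 95% interval -1.16 to -0.28, edgeR adjusted p = 0.0309) on 13 to 49 counts per library. The call was lost without con-named 4, con-named 5, HF-named 1, HF-named 2 or HF-named 4, each left out alone, with adjusted p from 0.0626 to 0.0687. It was also lost with no filter on low counts (adjusted p = 0.0779).

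Cacna2d3 (chr14:28904943-29721864, minus strand), the scarcest member, ranged from 0.714 to 1.37 CPM in con-named and from 0.732 to 1.59 CPM in HF-named libraries. Its log2 fold change was 0.12 (95% interval -0.35 to 0.59, edgeR adjusted p = 0.765), on 11 to 26 counts per library. Within the summed FPKM of the α2δ members, Cacna2d1 held 96.1% to 98.0% in con-named and 98.2% to 98.8% in HF-named libraries, while Cacna2d2 held 1.36% to 2.64% and 0.663% to 1.23%.

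Cacng6 (chr7:3424195-3435667, plus strand) encodes a γ subunit, a membrane protein that lowers calcium current through some of these pores. It measured 1.68, 2.49 and 4.48 CPM in con-named and 0.724, 1.56 and 2.47 CPM in HF-named libraries, so that every con-named value exceeded those of 3 of the 6 HF-named libraries. HF-named 1, 2 and 3 lay between 0.724 and 1.20 CPM and HF-named 4, 5 and 6 between 1.93 and 2.47 CPM, the same split of libraries as given for Cacna2d1. The log2 fold change of -0.76 (SE 0.29, 95% interval -1.37 to -0.16) had an adjusted p of 0.087 in edgeR, and -0.88 with an adjusted p of 0.0342 when scaled by library totals.

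Rrad (chr8:104628070-104631327, minus strand) encodes Rad, which binds β subunits and restrains L-type current until adrenergic signalling releases it. It ranged from 69.0 to 116 CPM in con-named and from 77.2 to 109 CPM in HF-named libraries, and the HF-named values lay wholly inside the con-named range. The log2 fold change was 0.05 (95% interval -0.18 to 0.28, edgeR adjusted p = 0.815), and -0.07 when scaled by library totals. Its exons share 8.94% of their bases with the antisense gene Gm33023, which held 23 to 36 counts per library.

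**Figure D2:**
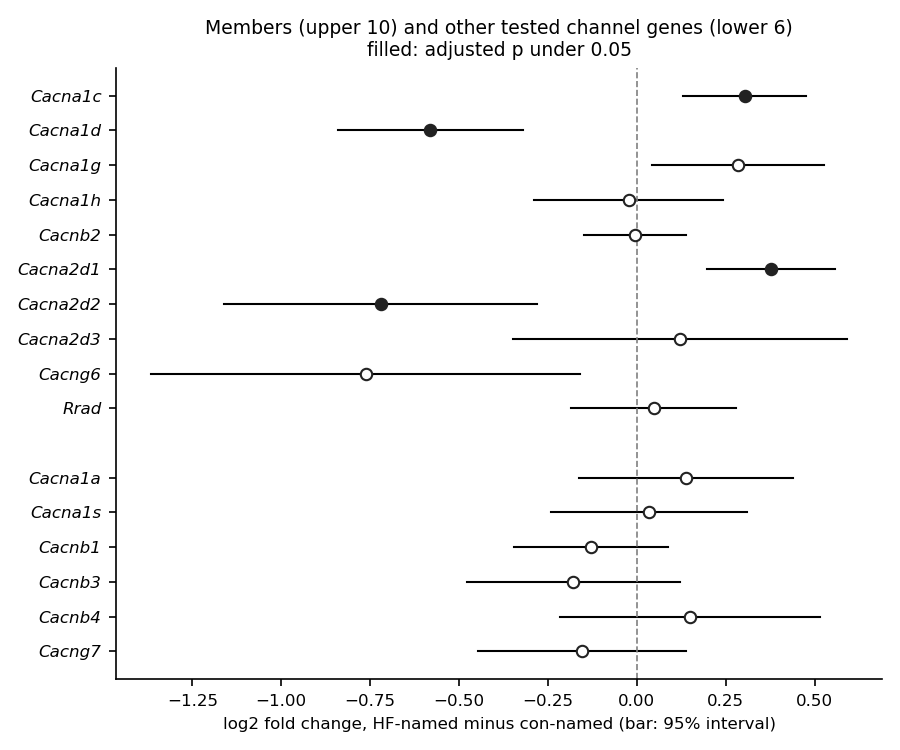
Log2 fold change, HF-named minus con-named, of the 10 members and the 6 other tested channel genes, with unadjusted 95% intervals and filled points for adjusted p under 0.05. Cacna1c and Cacna2d1 are filled to the right of 0 and Cacna1d and Cacna2d2 to the left, and the signs of Rrad and Cacna1s turn when libraries are scaled by their totals.

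Levels were compared between genes by the deposited FPKM, which divides by exon length. In con-named libraries the order ran from Rrad (61.3 ± 12.6 FPKM, SD, n = 6) through Cacna1c (16.3 ± 0.956), Cacna2d1 (14.3 ± 1.29) and Cacnb2 (5.31 ± 0.523) to Cacna1h (2.24 ± 0.432) and Cacna1g (2.01 ± 0.414). Cacng6 followed at 1.41 ± 0.494 FPKM, then Cacna2d2 (0.268 ± 0.0534), Cacna1d (0.241 ± 0.0204) and Cacna2d3 (0.118 ± 0.0334). Neighbours whose con-named ranges overlapped were Cacna1c with Cacna2d1, Cacna1h with Cacna1g, Cacna1g with Cacng6, and Cacna2d2 with Cacna1d. The length is the union of all annotated exons (21191 bp for Cacna1c and 1577 bp for Rrad), which understates the level of genes with many alternative exons.

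**Figure D3:**
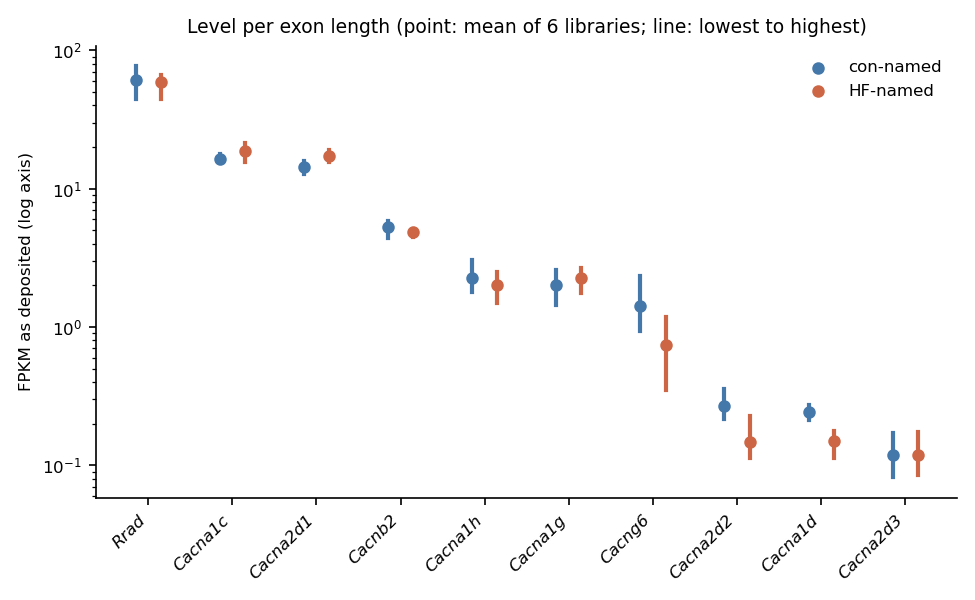
Deposited FPKM of the 10 members on a log axis, ordered by the con-named mean, with points for the mean of 6 libraries and lines from the lowest to the highest. Rrad stands highest at 61.3 and Cacna2d3 lowest at 0.118 in con-named libraries.

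The other voltage-gated calcium channel genes number 17, of which 6 passed the filter. EdgeR, DESeq2 and limma-voom called 0 of these 6, beside 13.3% of all genes tested in edgeR. Of the 6 genes, 0 had an unadjusted p under 0.05 in edgeR. Their log2 fold changes were 0.14 for Cacna1a, a neuronal pore, 0.03 for Cacna1s, the skeletal muscle L-type pore, -0.13 for Cacnb1, -0.18 for Cacnb3, 0.15 for Cacnb4 and -0.15 for Cacng7. Cacna1s turned to -0.08 when scaled by library totals, and edgeR adjusted p ran from 0.438 for Cacnb3 to 0.895 for Cacna1s. The 11 genes that were not tested had between 0 and 38 counts in their highest library, with Cacng2 at 0 in all 12 and Cacna1b the highest.

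Of 15 further regulators of these channels, 12 were tested, and 1 was called, Sri, which encodes the calcium-binding protein sorcin. That is a lower share than the 13.3% called among all genes tested. Sri was 39.4 ± 2.43 CPM in con-named and 33.9 ± 3.63 CPM in HF-named libraries (SD, n = 6 each), at a log2 difference of -0.22 (edgeR adjusted p = 0.0398). Its call was lost on leaving out any 1 of con-named 1, 2, 4, 5 and 6 or HF-named 2, 4, 5 and 6, with adjusted p from 0.0526 to 0.0899. Gem and Rem1, relatives of Rrad, had log2 fold changes of -0.37 (adjusted p = 0.0806) and -0.05 (adjusted p = 0.784) in edgeR, and Rem1 was 0.06 with the length and GC offset. Gem passed the threshold when con-named 4 was left out (adjusted p = 0.0408) and under library totals (adjusted p = 0.0273). Rrad held 92.5% ± 1.34 of the summed FPKM of the 3 genes in con-named and 93.6% ± 0.935 in HF-named libraries. The median log2 fold change of the 12 regulators was -0.03.

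Of 20 genes of adrenergic and protein kinase A signalling, all tested, 3 were called higher and 0 lower by edgeR. That share is near the 13.3% called among all genes tested. At an unadjusted p under 0.05 in edgeR, 2 of the 20 were lower, and the median log2 fold change of the list was 0.06. DESeq2 called 3 higher and 2 lower (Gnai2 and Ppp1ca), and under library totals edgeR called 2 higher and 3 lower (Gnai2, Ppp1ca and Prkaca). The anchoring protein Akap6 was 171 ± 17.9 and 228 ± 21.0 CPM (log2 fold change 0.42, edgeR adjusted p = 0.00267), higher in every HF-named library than in any con-named one. The phosphodiesterase Pde3a had a log2 fold change of 0.33 (edgeR adjusted p = 0.0117) and the kinase subunit Prkacb one of 0.19 (edgeR adjusted p = 0.0150), which was 0.07 (adjusted p = 0.344) under library totals. The receptor Adrb1 and the main catalytic subunit Prkaca were not called, at -0.07 and -0.01. Prkaca was -0.13 (adjusted p = 0.0293) under library totals, and with the length and GC offset Adrb1 was 0.01 and Prkaca 0.08.

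The next list holds 15 genes at or near the dyad, the junction of the surface membrane with the sarcoplasmic reticulum. It is not limited to partners of the channel there, since it includes the Z disc gene Tcap, the calcium pump Atp2a2 and its inhibitor Pln. All 15 were tested, and 5 were higher and 1, Tcap, lower, with a median log2 fold change of 0.10. Among all genes tested, 8.28% were called higher and 5.05% lower. Under library totals 4 of the 15 genes were higher and 3 lower, with Casq2 no longer called (adjusted p = 0.0536) and Cav3 and Pln called lower. The 3 of smallest p were Tcap, a titin-binding protein of the Z disc, at -0.34 (edgeR adjusted p = 0.00182), Asph, whose locus also encodes junctin and junctate, at 0.23 (adjusted p = 0.00699), and the sodium-calcium exchanger Slc8a1 at 0.73 (adjusted p = 0.00835). Asph was 0.14 (adjusted p = 0.0929) with the length and GC offset. Ryr2, the release channel that the L-type current opens, was 1228 ± 165 CPM in con-named and 1685 ± 237 CPM in HF-named libraries (SD, n = 6 each), at a log2 difference of 0.46 (edgeR adjusted p = 0.00878). The calcium pump Atp2a2 was 0.26 (edgeR adjusted p = 0.0527), and was called on all 12 libraries by DESeq2 (adjusted p = 0.0152) and limma-voom (adjusted p = 0.0424). In edgeR it was 0.32 (adjusted p = 0.0121) without HF-named 3 and 0.30 (adjusted p = 0.0464) without con-named 3. Its inhibitor Pln was -0.06 (adjusted p = 0.496), and -0.17 (adjusted p = 0.00945) under library totals.

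Summed levels of markers of other cells differed between the groups for several lists, and their part in the member differences was not tested. Fewer cells of a type and less RNA per cell cannot be told apart in bulk tissue. Calls in the marker lists stand beside 8.28% of all genes tested called higher and 5.05% called lower. The 12 nodal and conduction markers, 8 of them tested, summed to 98.4 to 119 CPM in con-named and 84.8 to 109 CPM in HF-named libraries (exact two-sided permutation p = 0.00866, adjusted 0.0260 over 9 lists, n = 6 each). Of these, Hcn4, the pacemaker channel, was called higher (log2 fold change 0.36, edgeR adjusted p = 0.0252), and Smoc2 (-0.26, adjusted p = 0.0341) and Gja5 (-0.40, adjusted p = 0.0336) lower, with Smoc2 going from a mean of 66.8 CPM in con-named to 55.9 CPM in HF-named libraries. The mean of the sum was 112 CPM in con-named and 95.4 CPM in HF-named libraries, so Smoc2 held the largest part of it and of the difference. The largest log2 fold change of the list was that of Cntn2, at -1.10 (edgeR adjusted p = 0.112), with means of 7.99 and 3.56 CPM. Tbx3 and Tbx18 had means of 13.3 and 4.07 CPM in con-named libraries. The untested Isl1, Vsnl1, Cpne5 and Shox2 reached at most 1, 3, 13 and 16 counts.

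The 10 fibroblast markers, with 3 called lower and 0 higher, summed to 1462 to 1864 CPM in con-named and 1203 to 1461 CPM in HF-named libraries (exact permutation p = 0.00217, adjusted 0.00974, n = 6 each). Gsn (808 CPM in con-named and 662 CPM in HF-named libraries) and Dcn (297 and 234 CPM) made up 62.0% and 27.1% of the difference in the sum, and 7 of the 10 markers were not called. The 10 macrophage markers, with 3 called lower and 0 higher, summed to 230.3 to 324 and 201 to 271 CPM (exact permutation p = 0.0195, adjusted 0.0438, n = 6 each). Lyz2 had the largest part in the macrophage sum, at a mean of 117 CPM in con-named and 89.0 CPM in HF-named libraries, and 0 of the 10 had a positive log2 fold change. The 10 endothelial markers, again 3 lower, summed to 1337 to 1745 and 1053 to 1593 CPM (exact permutation p = 0.0281, adjusted 0.0507, n = 6 each). Of these 10 genes, 0 had a positive log2 fold change. Vwf had the largest, at -1.04 (edgeR adjusted p = 0.000792), with means of 93.5 CPM in con-named and 45.3 CPM in HF-named libraries. Every HF-named library lay below every con-named library for Vwf. The 9 mural markers, with 0 of 8 tested called by edgeR and 3 higher at an unadjusted p under 0.05, summed to 1287 to 1463 and 1474 to 1674 CPM (exact permutation p = 0.00217, adjusted 0.00974, n = 6 each), a difference with p = 0.411 in the exact test under library totals. The cardiomyocyte, atrial, neuronal and glial, and skeletal muscle lists had exact permutation p of 0.526, 0.619, 0.556 and 0.184 (n = 6 each), with 1 higher and 5 lower of 10 cardiomyocyte markers called and 1 lower of 4 tested atrial markers. The 5 lower cardiomyocyte markers were Tnnt2, Tnni3, Myl2, Myl3 and Tnnc1, and Actn2 was higher. Myh6, the largest part of that sum, had a log2 fold change of 0.13 and was not called (edgeR adjusted p = 0.24). Under library totals the cardiomyocyte sum was lower in HF-named libraries by an exact permutation p of 0.00216 (n = 6 each).

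Exon length also moved with the fold changes of all genes. The median log2 fold change was -0.09 in genes under 1 kb of exon and 0.07 in the 2460 genes over 8 kb, of which 19% were called higher and 2.56% lower. Among the members, 7 lie over 8 kb, including Cacna1c, Cacna2d1 and Cacna1d, Cacna2d2 lies between 4 and 8 kb, and Cacng6 and Rrad lie between 1 and 2 kb. With the offset that corrects for exon length and GC, Cacna2d1 was 0.29 (edgeR adjusted p = 0.0346), Cacna1d -0.65 (adjusted p = 0.00456) and Cacna2d2 -0.70, all still called, while the call of Cacna1c was lost as given above.

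**Figure D4:**
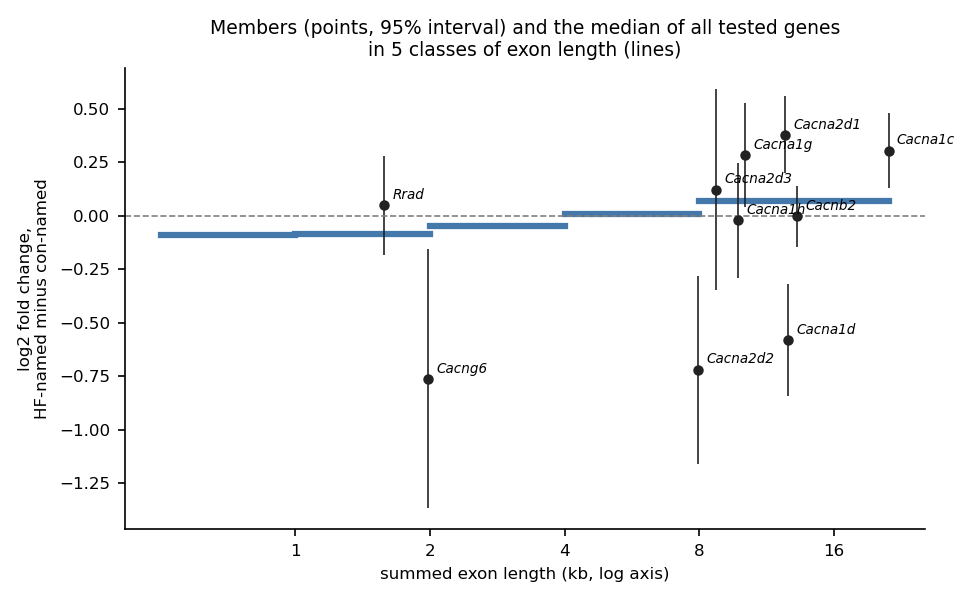
Log2 fold change of the 10 members with 95% intervals against summed exon length in kb (log axis), with lines for the median of all tested genes in 5 length classes, whose outermost ends are open. The lines climb from -0.09 to 0.07, while Cacna1d and Cacna2d2 lie below and Cacna1c and Cacna2d1 above the line at their length.

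**Figure D5:**
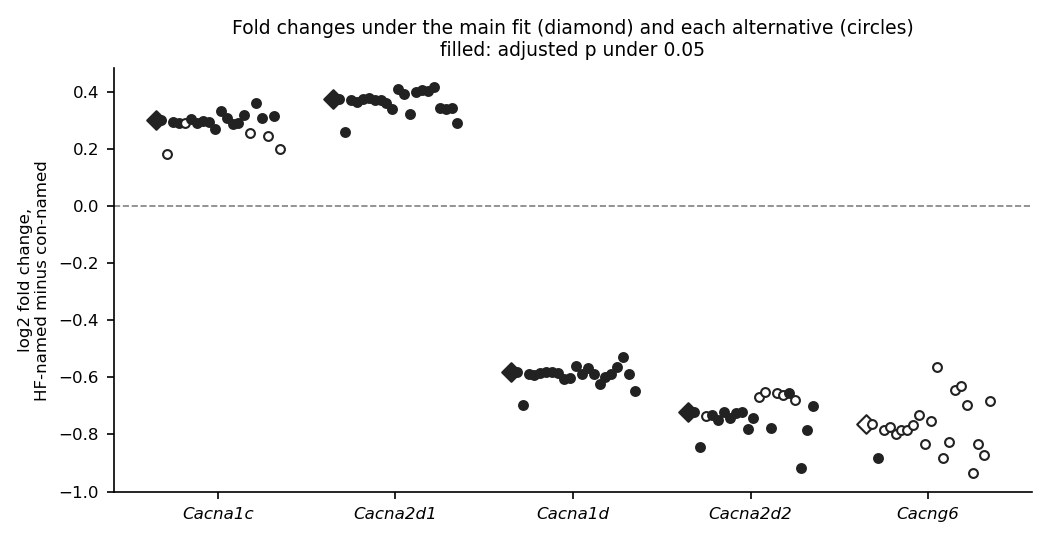
Log2 fold change of the 4 called members and Cacng6 in the main fit (diamonds) and in each of 21 alternatives (circles), filled for adjusted p under 0.05. All points of Cacna1d and Cacna2d1 are filled, 16 of 21 alternatives are filled for Cacna1c, 15 for Cacna2d2 and 1 for Cacng6.

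As the plot of alternatives shows, Cacna1d and Cacna2d1 were called in each of the 21 alternatives run. The log2 fold change of Cacna1d ranged from -0.70 to -0.53 and that of Cacna2d1 from 0.26 to 0.42. In the authors' deposited table, 4 of the 10 members had an adjusted p under 0.05, beside 5.11% of its 33183 genes with an adjusted p. That base is wider than the 15114 genes that passed the filter here, of which edgeR called 13.3%. The members all passed this filter, so 5.11% is not a like share for them. The log2 fold changes in the authors' deposited table were 0.38 for Cacna2d1, 0.31 for Cacna1c, -0.58 for Cacna1d and -0.72 for Cacna2d2. These come from the same libraries and equal the values of the DESeq2 alternative, so they are not a separate check.

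Within the groups, some members and other genes varied alike from library to library. Likeness was the Pearson correlation of log2 CPM over 12 libraries after subtracting each group's mean, among 13870 genes, and is given as a description since all values share libraries and depth. The genes named were picked as the highest of 13870 values over only 12 libraries, which by itself gives high values. How high unrelated genes would reach was not tested. The genes most like Cacna1c were Naca, which encodes a subunit of the complex on nascent polypeptides (r = 0.922), Ctnnal1 (0.913) and Tnrc6c (0.912), and those most like Cacna1d were Tmem165, a Golgi protein gene (0.911), Slc35f6 (0.887) and Efcab5 (0.853). For Cacna2d1 they were Btbd1 (0.964), Mettl7a1 (0.961) and Kyat3 (0.954), and for Cacna2d2 they were Ptprf, a receptor tyrosine phosphatase gene (0.886), and Ttc23 (0.863). Among all pairs of members, Cacna1c with Cacnb2 had the highest value (0.757), followed by Cacna2d1 with Cacng6 (0.736), and Cacna1d with Cacng6 the lowest (-0.635). These pairs too were picked as the extremes. Cacna1c with Cacna2d1, the pore and α2δ subunit of the main ventricular L-type channel, had 0.467.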

How the data were processed

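Bulk RNA-seq of 12 mouse ventricle libraries was analysed from 1 table. Reads were processed with cutadapt 1.15, HISAT2 2.0.5 and HTSeq 0.9.1 on mm10, per the submitters' processing notes. Per the file headers, the authors deposited a read count and an FPKM value per gene and library, group means of scaled counts (a signal), and log2 fold changes with p-values. The gene length implied by the deposited FPKM, count and column total was the same across libraries for all 33411 genes with reads (tolerance 1e-06). It equalled the annotated exon length for all 10 members, the only genes compared in this way. Counts were tested with edgeR 4.0.16 (R 4.3.3): filterByExpr with a minimum count of 10, TMM scaling, a quasi-likelihood fit on group alone, and Benjamini-Hochberg adjustment with a threshold of 0.05. Groups follow the library names in the table. Intervals are at 95%. Marker lists were compared by summed CPM with exact permutation tests. The fit was tested on simulated data. The genes named are all members, every tested channel gene outside the members, the 3 genes of smallest p in each other list with at least 3 calls and otherwise 1, 7 further genes (Gem, Rem1, Adrb1, Prkaca, Ryr2, Atp2a2 and Pln), and the 3 genes most like each called member with a mean of at least 1 CPM, of which 1 is not reported here; markers, Gnai2, Ppp1ca, Casq2, Cav3 and the values beside them were chosen after the values were seen. The members and lists were chosen with earlier results of these data known. Alternatives were other scalings and filters, DESeq2 1.42.0, limma-voom (limma 3.58.1), a replicate block, leaving out mitochondrial transcripts or 1 library, and, chosen after seeing the data, an exon length and GC offset.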

Additional observations from a re-analysis of the deposited data

Results flagged for a closer look

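Of 78 groups of 6 libraries checked for a library far from the others, 4 had one, by a rule that chance meets in about 1 in 20 groups. In con-named libraries the lowest Cacng7 value, 3.14 CPM, stood apart. In HF-named libraries the highest Pln value, 1862 CPM, stood apart. The summed CPM of the fibroblast markers had a high library at 1864 in the con-named group, and that of the neuronal and glial markers one at 17.3, also in the con-named group. None of the 10 members had such a library in either group.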

How the results depend on the processing

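Genes called numbered 2016, 3065 under library totals, 1131 with the replicate block and 1355 to 2550 with 1 library left out. Members called numbered 4, and 2 to 4 with 1 library left out, 2 only without HF-named 2. DESeq2 called 3 of the 12 regulators (2 higher, 1 lower), 5 of the 20 adrenergic genes and 8 of the 15 genes at or near the dyad, where edgeR called 1, 3 and 6 and limma-voom 1, 3 and 7. Under library totals edgeR called 3 regulators, all lower. Under library totals the all-gene median log2 fold change moved from -0.01 to -0.13 and the share of higher among called genes from 62.1% to 15.8%. Under library totals Rrad was -0.066, Cacna1s -0.084, and the neuronal and glial list -0.406 CPM. The cardiomyocyte list was -6805 CPM (exact p = 0.00216), against -1057 in the main fit, and the mural list 51.2 CPM. The endothelial list ranged from -344 to -236 CPM with 1 library left out, with exact p from 0.00866 to 0.0563. Leaving out 1 library turned the sign of uncalled genes in some fits: Cacna1h ranged from -0.076 to 0.062, Cacnb2 from -0.042 to 0.035, Cacna2d3 from -0.0037 to 0.23, Rrad from -0.024 to 0.11, Cacna1s from -0.068 to 0.12 and Prkaca from -0.051 to 0.0088. The length and GC offset turned Rem1 to 0.062, Adrb1 to 0.012 and Prkaca to 0.079. The causes were not tested.

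Equal replicate numbers did not pair the libraries: correlations of their deviations ran from -0.161 to 0.09, and 3 of 12 libraries correlated best with their own number. With the replicate block Cacna1c was 0.29 (edgeR adjusted p = 0.0740), Cacna1g 0.29 (adjusted p = 0.0470) and Sri -0.22 (adjusted p = 0.0836). Depth limits Cacna1d, Cacna2d2, Cacna2d3 and Cacng6, with as few as 10 counts in a library.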
